A study of Homo sapiens with 8 samples.

Results

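Extracellular adenosine is made from nucleotides that leave the cell. CD39, encoded by ENTPD1, strips ATP and ADP to AMP at the cell surface, and CD73, the 5'-nucleotidase encoded by NT5E, turns AMP into adenosine. Adenosine then signals through G-protein coupled receptors, is carried into the cell by the equilibrative transporter ENT1 (SLC29A1), or is deaminated to inosine by adenosine deaminase (ADA), which can be held at the surface by CD26 (DPP4). The A1 receptor (ADORA1) couples to Gi and lowers cAMP, whereas the ADORA2A and ADORA2B receptors couple to Gs and raise it. In breast tumors the pathway is known mainly for its restraint of immune cells and for NT5E as a surface marker of basal-like and mesenchymal cells.

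The expression of these 8 genes, NT5E, ENTPD1, ADA, ADORA1, ADORA2A, ADORA2B, SLC29A1 and DPP4, was described in the 4 lines of a breast cancer progression series. The genes were taken from a fixed list of names, out of the 56632 genes in the table of counts, and the list was chosen by pathway with the levels and fold changes of these same libraries already known, so the measured contrasts between the lines were part of the choice. Levels and fold changes of the 8 genes are therefore given as a description, with no p-value. Of the 8 genes, 7 passed the filter on low counts and were among the 18431 genes tested. The exception was DPP4, for which 1 count was found in all 8 libraries together.

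The 4 lines share an origin in MCF10A, a spontaneously immortalized, non-tumorigenic human mammary epithelial line. M1 is MCF10A itself. M2 (MCF10AT1k.cl2) came from MCF10A cells that were transfected with activated T24-HRAS and passed through a xenograft. M3 (MCF10Ca1h) and M4 (MCF10CA1a.cl1) were established from carcinomas that grew out of M2 xenografts, with M3 described as forming well-differentiated tumors and M4 as forming undifferentiated ones. All lines were grown as acini in Matrigel for 8 days in medium with 2% horse serum, hydrocortisone, cholera toxin and insulin, and poly A+ RNA of 2 biological replicates per line was sequenced. M1 and M2 received EGF at 10 ng/ml and M3 and M4 received none, so that for M3 and M4 against M1 the line and the EGF cannot be told apart. Each line is a single derivative, and all medium held cholera toxin, which activates Gs and thereby raises cAMP, the second messenger downstream of the adenosine receptors.

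Library totals ran from 69669970 to 107350344 expected counts. Levels are given as CPM, counts relative to the size of the library, with sizes scaled by the trimmed mean of M-values (TMM). Spearman's rho across genes, taken between the replicates of a line, was 0.998 in M2, 0.986 in M4, 0.977 in M3 and 0.971 in M1. A table of expression values published with the study exchanges 2 of the libraries: its values for the first M2 replicate matched the library labelled M1 replicate 2, and its values for the second M1 replicate matched the library labelled M2 replicate 1. Under that exchange the pairs would be M1 replicate 1 with M2 replicate 1 (rho 0.960) and M1 replicate 2 with M2 replicate 2 (rho 0.962). The deposited labels were kept here. The other pathway genes named by the rule in the processing section had 2 calls in M2, 14 in M3 and 23 in M4 against M1, and 8 in M4 against M3. Of these calls, 0, 0, 8 and 2 were made again with the 2 libraries exchanged. SIK1 and PDE4D, called in M4 against M1 but named outside that rule, are not among the 23. Of the leukocyte markers, PTPRC and CD3E had at most 3 counts in any library. CD14 was detected in each library (83 to 2037 counts), as was CSF1R (140 to 2271 counts). All 8 mammary epithelial markers were detected, with summed levels between 8098 and 15164 CPM. HRAS, the transfected gene, differed little between M2 and M1 (log2 fold change 0.10, adjusted p = 0.736 in edgeR's quasi-likelihood test), and was higher in M3 (1.03, adjusted p = 0.0038) and in M4 (1.23, adjusted p = 0.00119) than in M1.

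The promoters of NT5E and ADORA2B are shown because ADORA2B followed NT5E most closely of the listed genes compared with it, and because ADORA2B made up most of the receptor RNA. Other pairs among the 8 genes were not compared. Each is the stretch of 250 bases before the annotated start, taken from RefSeq on GRCh38.p14 and written 5' to 3' on the strand of the gene. The NT5E stretch is chr6:85449833-85450082 and the ADORA2B stretch is chr17:15944880-15945129, both on the plus strand. Capitals mark matches, on either strand, to TGACG (the core of the cAMP response element), GGGCGG (the GC box) and GCGTG (a form of the hypoxia response core).
NT5E: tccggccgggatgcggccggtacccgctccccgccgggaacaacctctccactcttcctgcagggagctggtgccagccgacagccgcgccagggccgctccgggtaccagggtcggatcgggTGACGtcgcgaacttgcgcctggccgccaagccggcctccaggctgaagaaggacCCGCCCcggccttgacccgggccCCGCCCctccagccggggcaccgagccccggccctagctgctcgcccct
ADORA2B: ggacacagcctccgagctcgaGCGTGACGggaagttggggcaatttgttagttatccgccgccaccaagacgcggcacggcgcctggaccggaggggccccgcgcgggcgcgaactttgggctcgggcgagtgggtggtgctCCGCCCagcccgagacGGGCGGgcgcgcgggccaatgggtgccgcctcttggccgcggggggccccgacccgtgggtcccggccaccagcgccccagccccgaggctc

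Both stretches held 75.2% G and C, against a median of 58.0% over 35116 RefSeq promoters of the same length. NT5E had 1 match to TGACG, which began 127 bases before the start, and 2 matches to GGGCGG, at 72 and 49 bases before it. ADORA2B had 1 match to TGACG, which shared bases with the match to GCGTG, and 2 to GGGCGG. Across the genome TGACG occurred in 21.2% of all promoters, GGGCGG in 42.6% and GCGTG in 32.2%, so none of these matches was rare. The full cAMP response element TGACGTCA (1.65% of promoters), the AP-1 motif TGANTCA (6.57%) and the hypoxia response core ACGTG (18.5%) had no match in either stretch.

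NT5E (GRCh37 chromosome 6, 86159302 to 86205509, plus strand) differed most between the lines among the 8 genes. Its RNA stood at 6.36 and 4.53 CPM in the M1 replicates and at 42.5 and 39.1 CPM in those of M2. It reached 318 and 212 CPM in the M3 pair and 272 and 199 CPM in the M4 pair. M1 was lowest, M2 lay between, and M3 and M4 were highest and overlapped each other, while no other neighbours in this order did. The M1 mean was 5.44 ± 1.30 CPM, that of M2 40.8 ± 2.41, that of M3 265 ± 74.9 and that of M4 236 ± 51.5 (SD over 2 replicates).

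Relative to M1, NT5E was 7.49-fold higher in M2 (log2 fold change 2.90, SE 0.27), 48.7-fold higher in M3 (5.61, SE 0.31) and 43.3-fold higher in M4 (5.44, SE 0.31). Between M4 and M3 the log2 fold change was -0.17 (SE 0.25). By CPM, NT5E ranked 10177 and 10837 among the 18431 genes tested in the M1 libraries, whereas the M2 libraries placed it at 4439 and 4704, those of M3 at 472 and 746, and those of M4 at 518 and 809. In counts, the M1 libraries held 526 and 371 NT5E reads and the M3 libraries 25191 and 18496, so that counting error was small beside the differences.

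The size of the NT5E difference rested on the assignment of the 2 disputed libraries. With them exchanged, M1 would hold libraries at 6.36 and 42.5 CPM and M2 libraries at 4.53 and 39.1 CPM, and the log2 fold change was -0.17 for M2 against M1, 3.44 for M3 and 3.27 for M4. With both left out, so that M1 and M2 had 1 library each, it was 2.62 for M2, 5.39 for M3 and 5.21 for M4. M3 and M4 were above each M1 and M2 library under either assignment.

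**Figure D1:**
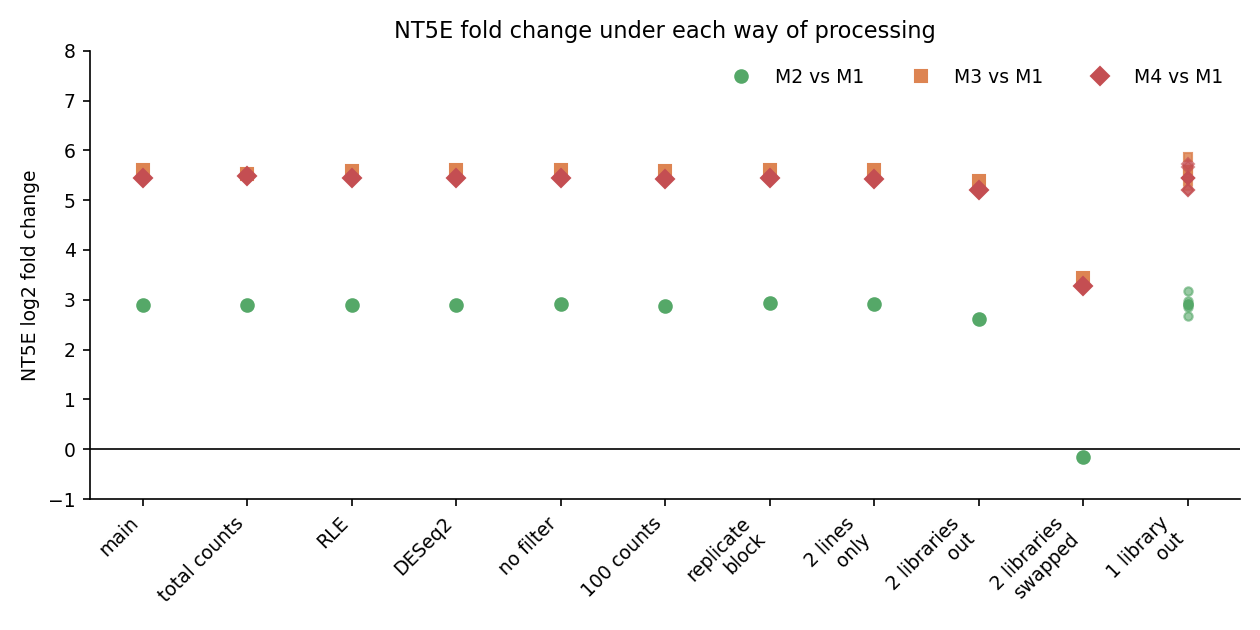
Log2 fold change of NT5E (vertical axis) against M1 for M2 (circles), M3 (squares) and M4 (diamonds) under each way of processing the counts (horizontal axis). The values stay near 2.90, 5.61 and 5.44 in all settings but the exchange of the 2 disputed libraries, where they are -0.17, 3.44 and 3.27, and the points at the right leave out 1 library at a time.

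ENTPD1, which supplies AMP to CD73, showed no such gradient. The M1 libraries held 14.2 and 11.6 CPM, the M2 libraries 15.1 and 15.7, the M3 libraries 12.7 and 23.6, and the M4 libraries 13.9 and 19.4. The lines overlapped except for M2, whose replicates both lay above those of M1 by a small margin. The log2 fold changes against M1 were 0.26 (SE 0.30) for M2, 0.50 (SE 0.30) for M3 and 0.37 (SE 0.30) for M4. ENTPD1 (chromosome 10, 97471536 to 97637023) shares exon bases with the antisense gene ENTPD1-AS1, which had 159 to 433 counts per library, and whether the counting used strand is not stated, so reads of the 2 genes could not be separated with certainty. ENTPD1-AS1 itself passed the test in none of the 4 comparisons (log2 fold change of M2, M3 and M4 against M1 0.69, 0.90 and 0.85, adjusted p = 0.349, 0.153 and 0.148).

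Per kilobase of the canonical transcript, ENTPD2, a related surface enzyme that acts mainly on ATP, was above ENTPD1 in each library. It made up 84.4% to 96.9% of the summed CPM per kb of the 4 surface enzymes ENTPD1, ENTPD2, ENTPD3 and ENTPD8, and ENTPD1 made up 2.23% to 12.3%. These shares depend on the canonical lengths, 12493 bases for ENTPD1 and 2102 for ENTPD2. Without regard to length, M1 replicate 1 held 14.2 CPM of ENTPD1 and 16.3 CPM of ENTPD2. Which ENTPD1 transcripts were expressed was not tested. ENTPD2 varied widely within lines, with 16.3 and 42.7 CPM for M1 and 41.5 and 172 CPM for M3, next to 81.3 and 79.7 for M2 and 49.6 and 63.7 for M4. No ENTPD2 difference passed the test (adjusted p = 0.240 for M2, 0.0886 for M3 and 0.312 for M4 against M1).

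Among the genes that take adenosine away, ADA was lower in the later lines. The M1 replicates stood at 21.2 and 18.3 CPM, those of M2 at 18.5 and 19.3, those of M3 at 15.3 and 8.44, and those of M4 at 9.81 and 9.62. Both M4 replicates lay below both M1 and both M2 replicates, and M3 spanned from just below M1 to below M4. The log2 fold change against M1 was -0.06 (SE 0.27) for M2, -0.73 (SE 0.27) for M3 and -1.02 (SE 0.27) for M4. The M3 value was -0.36 without M3 replicate 2 and -1.22 without M3 replicate 1. The M4 value was -1.03 with the disputed libraries exchanged and -1.12 with both left out. ADA (chromosome 20, 43213537 to 43280893, minus strand) shares exon bases with PKIG, a protein kinase inhibitor gene on the other strand, which had 531 to 1197 counts per library. PKIG had log2 fold changes of -0.43 in M2, -0.53 in M3 and -0.83 in M4 against M1 (adjusted p = 0.277, 0.117 and 0.0243), in the direction of ADA, and its part in the ADA counts was not tested.

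DPP4, the surface anchor of ADA, had 1 count in M1 replicate 2 and 0 in the other 7 libraries, which allows a level of up to 0.0279 to 0.0431 CPM at the 3-count limit of each library, by counting error alone. SLC29A1, the transporter ENT1, was higher in the 3 derived lines than in M1. The M1 pair read 18.0 and 25.4 CPM, the M2 pair 51.6 and 51.5, the M3 pair 67.9 and 56.5, and the M4 pair 43.4 and 60.1. Both M1 libraries were below all others, and M4 overlapped both M2 and M3. The log2 fold change against M1 was 1.25 (SE 0.22) in M2, 1.52 (SE 0.22) in M3 and 1.25 (SE 0.22) in M4. With the disputed libraries exchanged the values were 0.14, 0.84 and 0.57, and with both left out they were 1.52, 1.80 and 1.53.

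Of the receptors, ADORA2B, the low-affinity A2B receptor, was the most abundant per length. Its M1 libraries held 22.0 and 28.9 CPM, its M2 libraries 34.0 and 32.6, its M3 libraries 54.4 and 50.4, and its M4 libraries 52.2 and 60.9. The order was M1, M2, then M3 and M4 together, and the last 2 overlapped. The log2 fold change against M1 was 0.39 (SE 0.17) in M2, 1.04 (SE 0.17) in M3 and 1.15 (SE 0.17) in M4, and with the libraries exchanged it was 0.13, 0.90 and 1.01. With both left out, the M3 and M4 values were 1.26 and 1.36.

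ADORA1 followed another course. The M1 replicates read 0.628 and 0.866 CPM, those of M2 2.66 and 2.56, those of M3 3.03 and 5.32, and those of M4 0.203 and 0.705. M2 and M3 were above M1 and M4, which overlapped. The log2 fold change against M1 was 1.80 (SE 0.58) in M2, 2.48 (SE 0.59) in M3 and -0.74 (SE 0.58) in M4, and between M4 and M3 it was -3.22 (SE 0.61). Exchanging the libraries left the M4 against M3 value at -3.21 and brought the others to 0.05, 1.34 and -1.87, and with both left out the M3 value was 2.73. ADORA1 rested on 23 to 463 counts per library, and without M4 replicate 2 the M4 against M1 value was -1.85.

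ADORA2A was near the limit of detection throughout, with 6 to 30.2 counts per library and 0.085 to 0.35 CPM. No order of the lines could be read from it, and its log2 fold changes against M1 were -0.86 (SE 0.67) in M2, 0.04 (SE 0.66) in M3 and 0.03 (SE 0.65) in M4. The readthrough gene SPECC1L-ADORA2A and the antisense gene ADORA2A-AS1 overlap it, with 0 to 31.3 and 0 to 13 counts per library. Per kilobase, ADORA2B accounted for 94.4% to 99.5% of the 3 receptors in each library, ADORA1 for 0.202% to 5.22% and ADORA2A for 0.151% to 0.935%. ADORA1 had its highest share in M3 replicate 2 and its lowest in M4 replicate 1. The A3 receptor gene ADORA3 was not matched to the table and was not analysed here.

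**Figure D2:**
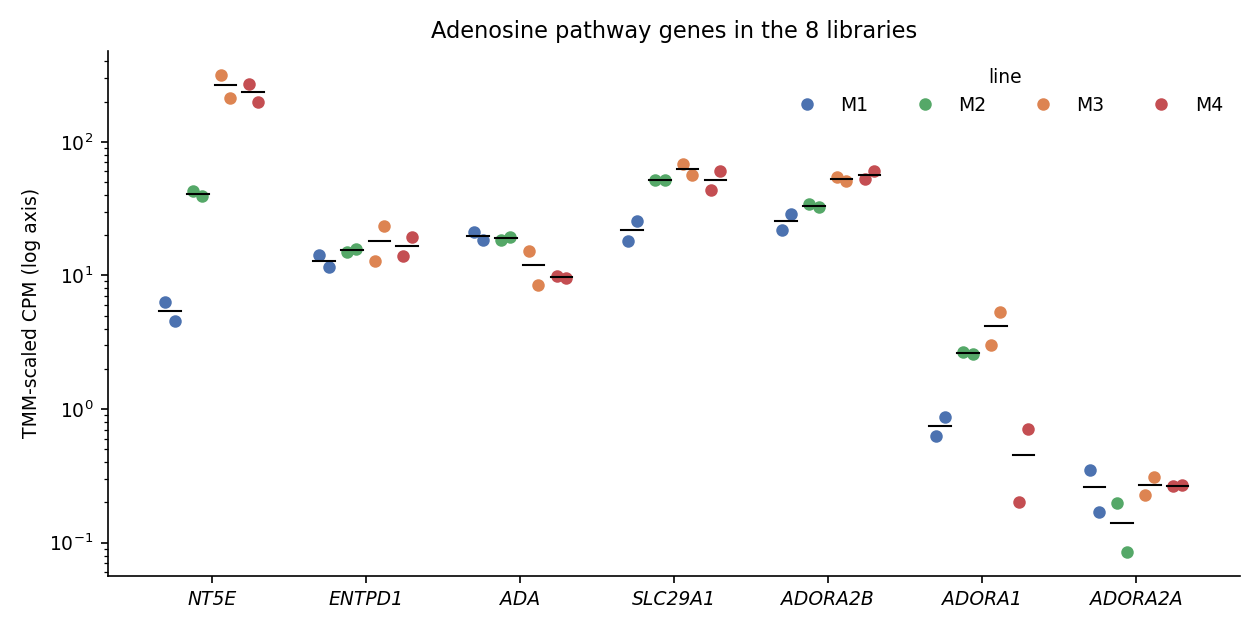
TMM-scaled CPM (vertical log axis) of 7 adenosine pathway genes, with 1 point per library, colored by line, and a bar at the mean of the 2 replicates; DPP4, at 0 in 7 of 8 libraries, is not drawn. NT5E runs from 4.53 CPM in M1 to 318 CPM in M3, while ENTPD1 stays between 11.6 and 23.6 CPM.

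**Figure D3:**
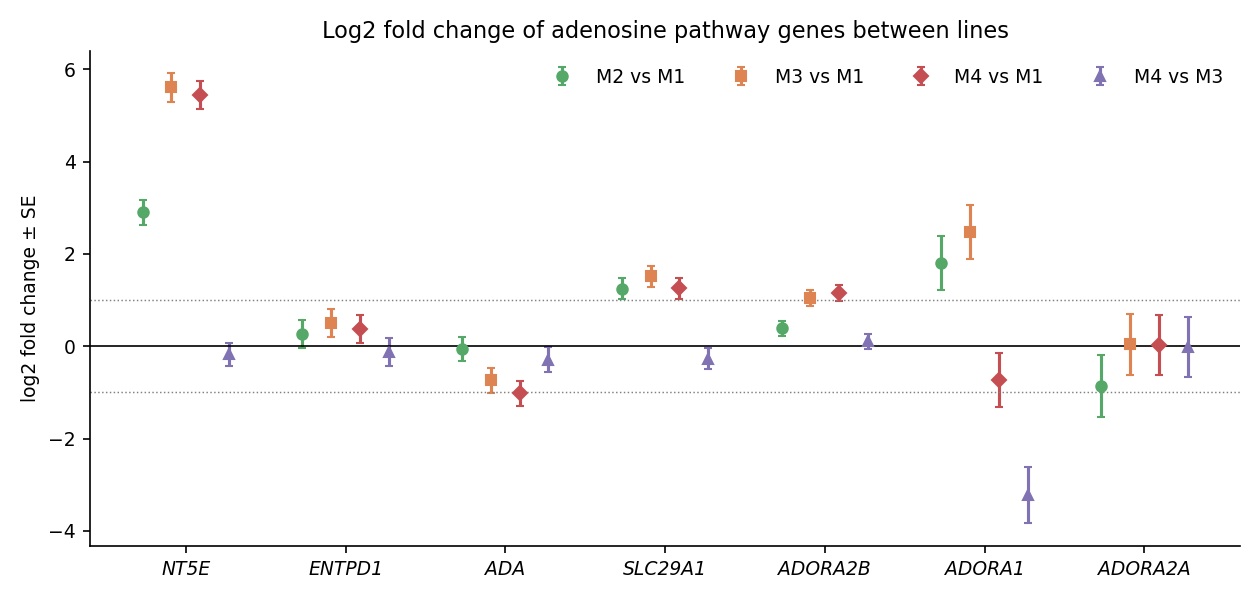
Log2 fold change with its SE (vertical axis, bars) of the same 7 genes for M2, M3 and M4 against M1 and for M4 against M3, with dotted lines at 1 and -1. NT5E lies highest for all 3 lines against M1, and ADORA1 is the gene that differs most between M4 and M3, at -3.22.

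A gene was called where its log2 fold change exceeded 1 in size and its adjusted p in edgeR's quasi-likelihood fit was below 0.05. In M2 against M1, 2 of the 7 genes tested were called higher (NT5E and SLC29A1) and 0 lower, where 3.37% of all genes tested were called, 2.26% higher and 1.11% lower. In M3 against M1, 4 were called higher (NT5E, ADORA1, ADORA2B and SLC29A1) and 0 lower, with 13.5% of all genes called, 8.02% higher and 5.51% lower. In M4 against M1, 3 were called higher (NT5E, ADORA2B and SLC29A1) and 1 lower (ADA), with 20.7% of all genes called, 9.48% higher and 11.2% lower. In M4 against M3, 1 was called lower (ADORA1) and 0 higher, with 10.3% of all genes called, 3.99% higher and 6.3% lower. Of these 11 calls, 4 were made again without each library in turn (NT5E and SLC29A1 in M3 and in M4 against M1). The NT5E call in M2 was lost without either M2 replicate, but hardly any gene was called in M2 against M1 with 1 M2 library left. Its log2 fold change there stayed at 2.68 to 3.17 with any 1 library left out. The ADA call was lost without any of 5 libraries, among them both of M4. With the disputed libraries exchanged 1 of the 11 was made (ADORA2B in M4), and with both left out 7 were. Since the genes were listed with these contrasts known, nothing is read from the counts.

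The ratio of NT5E RNA to ADA RNA differed between the lines. It covers 2 genes only, and both were listed with their contrasts known. ADK, the adenosine kinase gene of the intracellular list, is not in it. The line means of ADK were 44.1, 52.0, 48.7 and 42.2 CPM per kb in M1, M2, M3 and M4, beside 13.2, 12.6, 7.94 and 6.49 for ADA. Per kilobase, the level of NT5E was 0.126 and 0.104 times that of ADA in the M1 replicates, 0.963 and 0.850 times in those of M2, 8.73 and 10.6 times in those of M3, and 11.7 and 8.70 times in those of M4. ADA was thus above NT5E in M1, the 2 were close in M2, and NT5E was above ADA in M3 and M4, with no overlap between M1, M2 and the later lines. Against the summed ENTPD1 and ENTPD2, the ratio of NT5E was 0.200 and 0.060 for M1, 0.299 and 0.280 for M2, 4.30 and 0.712 for M3, and 3.09 and 1.76 for M4. With the disputed libraries exchanged, M1 would hold NT5E over ADA at 0.126 and 0.963 and M2 at 0.104 and 0.850, so that M1 and M2 would overlap, with both still below M3 and M4. M3 replicate 2 stood apart from M3 replicate 1 in the second ratio, as it did in ENTPD2. These ratios compare RNA, depend on the canonical transcript lengths used, and hold no measurement of enzyme activity or of adenosine.

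**Figure D4:**
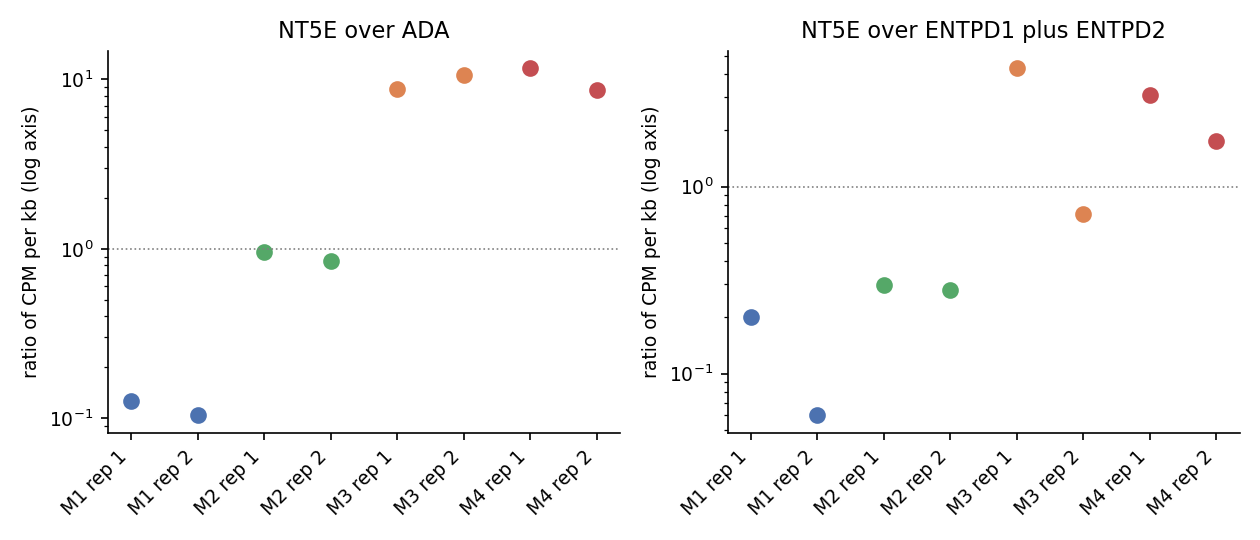
Ratio of CPM per kb of NT5E over ADA (left) and over ENTPD1 plus ENTPD2 (right) in each library, on log axes, with a dotted line at equal levels. The left ratio is at or under 0.126 in M1 as labelled (0.126 and 0.963 with the disputed libraries exchanged) and at least 8.70 in M3 and M4, and the right ratio is above 1 in 3 of the 4 M3 and M4 libraries.

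The genes whose log2(CPM + 1) followed that of NT5E most closely over the 8 libraries, out of 13289 genes with a mean of at least 1 CPM, were an unnamed gene (ENSG00000230439, Pearson's r = 0.994), C1GALT1, the galactosyltransferase that makes the core 1 O-glycan (0.994), MALL (0.991), DIAPH3, an actin-nucleating formin (0.991) and FAM241B (0.990). C1GALT1 ran from a mean of 6.42 CPM in M1 to M2, M3 and M4 means of 15.4, 26.9 and 28.0. The 5 that ran most opposite were CLDN8, a tight junction claudin (-0.994), MCC (-0.993), ZNF346 (-0.992), SNCAIP (-0.989) and DEFB1, an epithelial defensin (-0.986). The means of CLDN8 went from 10.6 CPM in M1 to 2.30, 0.235 and 0.0673 CPM in the other 3 lines in order. With Spearman's rho in place of Pearson's r, 0 of the 5 at either end were shared, and with a pseudocount of 0.1 CPM 4 and 3 were. Among the pathway genes themselves r with NT5E was 0.939 for ADORA2B, 0.851 for SLC29A1, 0.458 for ENTPD1, 0.264 for ADORA1 and -0.769 for ADA. The 8 libraries are 4 pairs of replicates, and these values describe their order and no more.

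Further genes of adenosine and nucleotide handling were followed in 10 lists with 93 genes in the table, of which 73 were tested. These lists too were chosen with earlier results of these data known. The shares called are therefore a description from which nothing is read, and the adjusted p-values of these genes do not allow for that choice. In M2 against M1, 1 of them was called higher and 1 lower (2.74%, against 3.37% of all genes), and in M3 against M1, 9 were called higher and 5 lower (19.2%, against 13.5%). In M4 against M1, 13 were called higher and 12 lower (34.2%, against 20.7%), and in M4 against M3, 3 were called higher and 5 lower (8 of 73, against 10.3% of all genes). Their median log2 fold change was -0.0044 in M2, 0.16 in M3 and 0.04 in M4 against M1, beside medians over all genes of -0.04, -0.02 and -0.02. With the 2 disputed libraries exchanged, 0, 0, 9 and 2 of these genes were called in the 4 comparisons, where the fit over all genes called 0%, 1.19%, 8.46% and 4.5%. With both left out, 0, 10, 16 and 8 were called, beside 0.149%, 8.37%, 12.5% and 8.65% of all genes.

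Among 7 tested surface enzymes other than CD39 and CD73, 3 were called lower in M4 than in M1 and 0 were called higher. Of all genes tested, 11.2% were called lower and 9.48% higher in that comparison. By sign alone, 3 of the 7 had a positive log2 fold change and 4 a negative one. ENPP3, a phosphodiesterase that releases AMP from nucleotides, was read 66 and 135 times in the M1 libraries, 1 and 0 times in those of M2 and 9 and 8 times in those of M3, and had 0 counts in both M4 libraries. It fell by at least 77.9-fold in M4 against M1 (adjusted p = 0.00189 in edgeR), and it was also lower in M3 (log2 fold change -3.56, adjusted p = 0.0168) and in M2 (adjusted p = 0.0126), where the ratio of M1 to M2 was 210-fold with an exact 95% counting interval of 37.3 to 8339. ENTPD3 went from 74 and 24 counts in the M1 libraries to 2 and 0 in those of M4 (adjusted p = 0.00552), a ratio of 57.0 with an interval of 15.4 to 477. ACP3, a phosphatase that can also make adenosine from AMP, stood at 7.22 ± 0.957 CPM in M1, 1.03 ± 0.469 in M3 and 1.84 ± 0.340 in M4 (SD over 2 replicates). Its log2 fold changes against M1 were -2.81 for M3 (adjusted p = 0.0032) and -1.98 for M4 (adjusted p = 0.00682). Without both disputed libraries the call of ACP3 in M4 was lost, and without M1 replicate 2, M3 replicate 1 or M3 replicate 2 that of ENPP3 in M3 (log2 fold change -2.94 without M1 replicate 2). The ENPP3 call in M2 was lost without either M2 replicate, where hardly any gene was called in M2 against M1, and with both disputed libraries left out. With these exchanged, M1 would hold 66 and 1 ENPP3 counts and M2 135 and 0, and the 77.9-fold bound would not apply. The ENPP3 log2 fold change in M2 then turned to 1.04, that in M3 was -1.95, and no line had an ENPP3 call against M1. Under the exchange ACP3 was at -2.39 in M3 and -1.56 in M4, also with no call.

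Genes that handle adenosine and its products inside the cell were measured next. PNP, which splits inosine to hypoxanthine, rose from 90.5 ± 6.26 CPM in M1 to 214 ± 0.241 in M3 and 244 ± 16.6 in M4 (log2 fold change 1.24, adjusted p = 0.00125, and 1.43, adjusted p = 0.00041). With the disputed libraries exchanged the PNP log2 fold changes were 0.77 in M3 and 0.958 in M4, with no call. XDH, which oxidizes hypoxanthine to xanthine and uric acid, stood at 9.03 and 36.6 CPM in the M1 replicates, 151 and 245 CPM in the M3 replicates, and 117 and 136 CPM in the M4 replicates. The XDH log2 fold change was 3.12 in M3 (adjusted p = 0.0124) and 2.47 in M4 (adjusted p = 0.0179). XDH was lost from the calls without M3 replicate 2 in M3 and without either M4 replicate in M4, and its values without M1 replicate 2 were 4.46 and 3.81. AHCYL2, an AHCY-like protein, was lower in M4 (-1.63, adjusted p = 0.000304). MTAP, which salvages methylthioadenosine, was near 0 in M1 (4 and 0 counts) and stood at 1.24 ± 0.110 CPM in M4 (150 and 91 counts, adjusted p = 0.00769). Per length the M4 level of MTAP was still low, at 0.206 CPM per kb. The MTAP log2 fold change of 5.60 ran from 4.65 to 9.78 with 1 library left out, and was 4.79 with no call under the exchange. AHCY, the enzyme that releases adenosine from S-adenosylhomocysteine, had the highest level per length of its list, at a mean of 216 CPM per kb, and no call against M1. Of the 13 genes tested in this list, 3 were called higher and 1 lower in M4 against M1, where 9.48% of all genes were called higher and 11.2% lower.

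Among the 5'-nucleotidases inside the cell, NT5C was higher in M3 than in M1 (1.01, adjusted p = 0.00312), and NT5M, the mitochondrial form, was lower in M4 than in M1 (-2.20, adjusted p = 0.00837) and than in M3 (-3.19, adjusted p = 0.00613). The NT5M value for M4 against M1 was -1.49 without M1 replicate 2, and its call was lost without M4 replicate 2. NT5C lost its call without M1 replicate 1. Of the 4 intracellular members of the ENTPD family, ENTPD7 was called in M4 (1.23 against M1, adjusted p = 0.00754), where 20.7% of all genes were called. The ENTPD7 call was lost without M4 replicate 2 (0.96). ENTPD6 had the highest level per length of this family, at 42.4 CPM per kb.

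Beside SLC29A1, other transporters differed between the lines in both directions. SLC29A2, the equilibrative transporter ENT2, went from 23.8 and 12.4 CPM in the M1 libraries to 49.6 and 55.7 CPM in the M4 libraries (1.54, adjusted p = 0.00713). SLC29A3, an intracellular equilibrative transporter, fell from 32.9 and 20.2 CPM in M1 to 7.50 and 6.29 in M3 (-1.94, adjusted p = 0.00261) and 9.53 and 10.6 in M4 (-1.40, adjusted p = 0.00528), with a value of -0.99 and no call in M4 without M1 replicate 1. SLC28A3, a concentrative transporter, was called lower in M3 (-2.79, adjusted p = 0.047), but its M1 replicates stood at 2.16 and 10.1 CPM and its log2 fold change without M1 replicate 2 was -1.28. The SLC28A3 call was lost without any 1 of 6 libraries, which were all but M1 replicate 1 and M3 replicate 2.

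ATP release and its receptors were also measured. PANX2, a pannexin, was higher in M4 than in M1 (2.47, adjusted p = 0.00373), as was LRRC8A, a subunit of the volume-regulated anion channel (1.46, adjusted p = 0.00591). Without both disputed libraries the LRRC8A value was 1.41 and its call was lost. GJB2, the gap junction protein connexin 26, was higher in M3 than in M1 (2.19, adjusted p = 0.0373) and lower in M4 than in M3 (-2.60, adjusted p = 0.0276). Its M1 replicates stood at 6.97 and 28.6 CPM, and without M1 replicate 2 its M3 value was 3.55. Both GJB2 calls were lost without any library of M2, M3 or M4. Of 8 nucleotide receptors tested, P2RY2, a receptor for ATP and UTP, was higher in M3 (1.16, adjusted p = 0.03) and M4 (1.30, adjusted p = 0.0142), and P2RX5 was higher in both (1.06, adjusted p = 0.0483, and 1.25, adjusted p = 0.0208). P2RY11 was lower in both (-1.29, adjusted p = 0.00764, and -1.14, adjusted p = 0.00808), and P2RX6 was lower in M4 (-3.82, adjusted p = 0.0163). Without both disputed libraries the calls of P2RY2, P2RX5, P2RY11 and P2RX6 were lost. The M4 calls of P2RY2 and P2RX5 were also lost without M1 replicate 2 or M4 replicate 2, that of P2RX6 without M1 replicate 2 or M4 replicate 1, and that of P2RY11 without M4 replicate 2. In M3 that of P2RY2 was lost without any of 5 libraries and that of P2RX5 without any of 7. P2RX4, an ATP-gated channel, had the highest level per length of this list (5.55 CPM per kb) and was not called (0.49 in M4, adjusted p = 0.246).

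Downstream of the receptors, ADCY7, an adenylyl cyclase, was the 1 of 11 tested G protein and cyclase genes that was called in any line against M1. That was 9.09% of the list, where 3.37% of all genes were called in M2, 13.5% in M3 and 20.7% in M4. For ADCY7 the M1 libraries held 3.21 and 5.94 CPM, the M2 libraries 20.1 and 19.5, the M3 libraries 25.3 and 27.1, and the M4 libraries 24.4 and 47.8. The M1 replicates were below all others (log2 fold change 2.11, 2.52 and 2.98, adjusted p = 0.0219, 0.00435 and 0.00152). With the disputed libraries exchanged it was 0.13, 1.17 and 1.63 with no call, and without M2 replicate 1, M2 replicate 2 or M1 replicate 1 the M2 call was lost. With 1 M2 library left, hardly any gene was called in M2 against M1. GNAS, which encodes the Gs alpha subunit, had the highest level per length (262 CPM per kb) and was called in none of the comparisons (-0.33 in M4 against M1, adjusted p = 0.147).

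The 9 genes that respond to cAMP did not move together. In M4 against M1, NR4A1 (2.44, adjusted p = 0.00471) and NR4A3 (2.72, adjusted p = 0.014) were higher, while NR4A2 (-2.27, adjusted p = 0.0314), SIK1 (-1.15, adjusted p = 0.0047) and PDE4D (-1.60, adjusted p = 0.00143) were lower. The calls of SIK1 and PDE4D were not followed singly under the other settings. NR4A1 was also higher in M3 (2.11, adjusted p = 0.0118), a call lost without M1 replicate 1 or M3 replicate 2. NR4A2 stood at 8.94 and 38.1 CPM in the M1 replicates, and without M1 replicate 2 its M4 value was -0.88 with no call; the call was also lost without any of 5 other libraries. NR4A3 was at 3 to 15 counts in each library of M1 to M3 and at 138 and 56 counts in M4, and its call was lost without M1 replicate 2 or M4 replicate 1. PDE4B, a phosphodiesterase that breaks down cAMP, was lower in M4 than in M3 (-3.01, adjusted p = 0.0329), at 1.48 and 0.307 CPM in the M4 replicates and 8.60 and 5.99 CPM in those of M3, and 5 of the 8 libraries were each needed for that call. DUSP1 had the highest level per length and was not called (-0.55 in M4, adjusted p = 0.56), with 200 and 38.2 CPM in the M1 replicates.

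In the family of DPP4, FAP, a surface peptidase best known from fibroblasts, was higher in M3 (3.41, adjusted p = 0.0203) and in M4 (3.14, adjusted p = 0.0183) than in M1. The M1 pair read 1.96 and 2.82 CPM, the M2 pair 7.15 and 6.08, the M3 pair 41.7 and 9.06, and the M4 pair 30.1 and 12.1, so that its spread within M3 and M4 was wide. Without M3 replicate 1 the M3 value was 1.93, and without M4 replicate 1 the M4 value was 2.35, with both calls lost. Both FAP calls were also lost without either M1 replicate, and that in M3 without either M2 replicate. The 5 fibroblast and perivascular markers summed to 9.33 to 60.2 CPM for M1, 72.7 to 74.7 for M2, 10.1 to 16.0 for M3 and 6.43 to 7.57 for M4, with DCN at 60.2 and 58.6 CPM in the M2 replicates and COL1A2 at 0 in all libraries. DPP7, a lysosomal peptidase, was lower in M4 (-1.07, adjusted p = 0.00398), with a value of -0.82 and no call without M1 replicate 2.

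**Figure D5:**
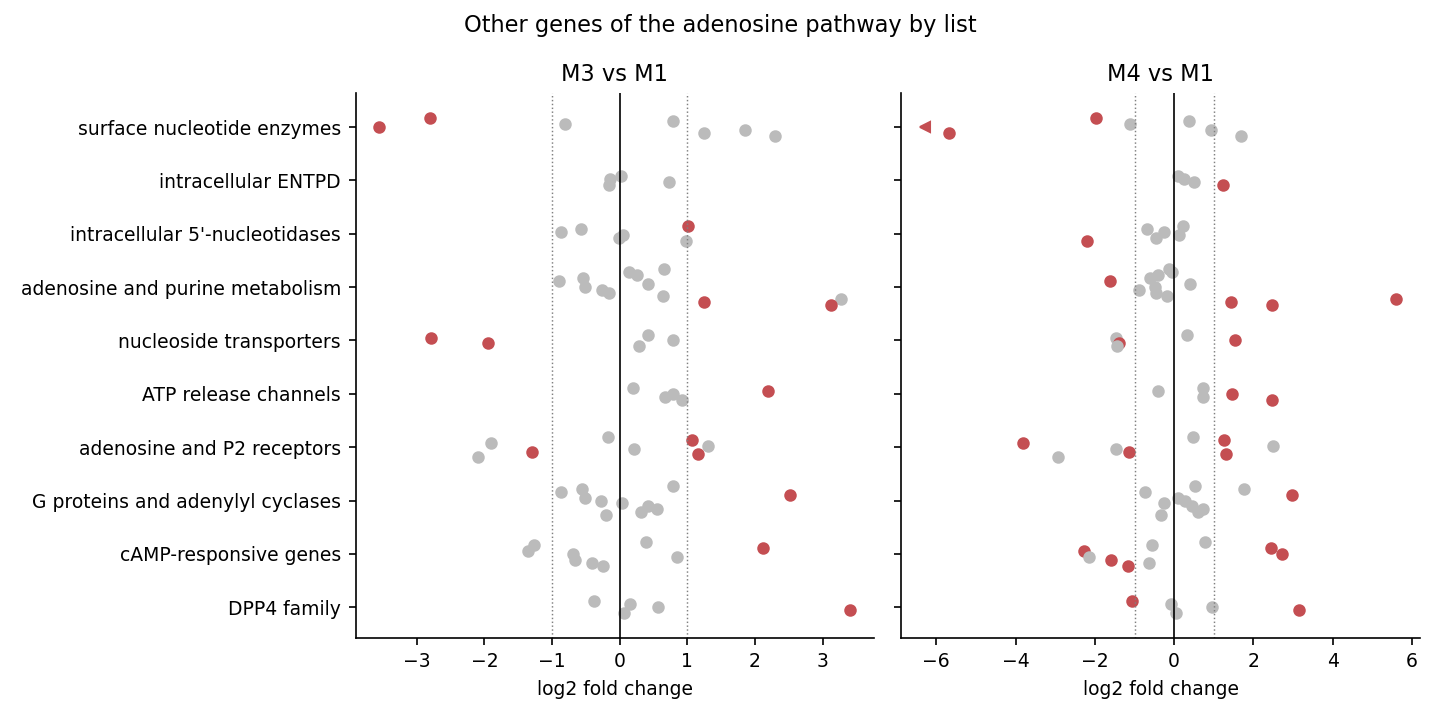
Log2 fold change (horizontal axis) of the 73 other pathway genes tested, by list (vertical axis), for M3 (left) and M4 (right) against M1, with red for genes called and grey for the rest; the triangle marks ENPP3 at its bound. In M4, 13 genes are called higher and 12 lower, and in M3 9 and 5.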

How the data were processed

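Poly A+ RNA of 8 libraries (4 lines, 2 biological replicates each) was sequenced with paired-end reads. The deposited table holds expected counts per gene, which the authors estimated with STAR and RSEM on hg19 (GRCh37) and GENCODE v19 after trimming with Trimmomatic; versions are not given in the sources used here, nor is whether strand was used. Before testing they were rounded to whole numbers. The libraries totalled 69669970 to 107350344, and intervals and floors (3 counts) cover counting error only.

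edgeR 4.0.16 (R 4.3.3) was used with TMM factors, filterByExpr and robust quasi-likelihood tests on all 8 libraries with 1 coefficient per line. Genes were called where the log2 fold change exceeded 1 in size and the Benjamini-Hochberg adjusted p was below 0.05, with p-values adjusted over all 18431 genes tested. The SE of a log2 fold change is its size divided by the square root of the F value. DESeq2 1.42.0, other scalings, filters, samples and assignments of libraries were tried as alternatives. On simulated counts for M4 against M1 over 17848 genes, 62 of 100 genes changed by 2 and 89 of 100 changed by 4 on the log2 scale were called, 0 in the wrong direction, and 2 unchanged genes were called.

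Levels per kilobase used the canonical transcript of GENCODE release 44 mapped to GRCh37. Of 126 listed symbols, 124 were matched. The genes of the pathway and all lists were chosen with earlier results of these data known. Named beside the 8 genes were any gene over them, for each list up to 4 called genes with the largest changes and the gene highest per kilobase, the 5 genes most like and least like NT5E, and the markers. SIK1, PDE4D and HRAS were named outside this rule after their values were seen. The result for 1 marker gene is not reported here.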

Additional observations from a re-analysis of the deposited data

Results flagged for a closer look

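Among the other pathway genes called between M4 and M3 in edgeR's quasi-likelihood test, 6 had log2 fold changes against M1 of opposite sign in M3 and in M4. The call between M4 and M3 was part of how these 6 were picked. Genes without that call also had opposite signs, such as AHCY (0.25 in M3 and -0.42 in M4) and P2RX4 (-0.18 and 0.49). For GJB2 the M4 value against M1 was -0.41, and -1.08 to 0.94 with 1 library left out. For ENTPD7 the M3 value against M1 was -0.16, and -0.34 to 0.03 with 1 library left out. The side of M1 was therefore not settled for GJB2 in M4 or for ENTPD7 in M3. ENTPD3 had 94 and 142 counts in M3 and 2 and 0 in M4, a log2 fold change of -6.93 (adjusted p = 0.00692). With so few counts in M4 the fitted value depends on the prior count, and the ratio of M3 to M4 was 136-fold with an exact 95% counting interval of 37.2 to 1129. NT5M stood at 7.06 ± 1.59 CPM in M3 and 0.772 ± 0.167 CPM in M4 (SD over 2 replicates), and the fitted change was -3.19 on the log2 scale (adjusted p = 0.00613). GJB2 stood at 60.5 and 102 CPM in M3 and 13.1 and 13.8 in M4, a log2 fold change of -2.60 (adjusted p = 0.0276). NR4A3 was higher in M4 than in M3 by 3.42 on the log2 scale (adjusted p = 0.014) on 5 and 10 counts in M3. ENTPD7 was also higher in M4, by 1.40 on the log2 scale (adjusted p = 0.0106). PDE4B stood at 8.60 and 5.99 CPM in the M3 replicates and 1.48 and 0.307 in those of M4 (-3.01, adjusted p = 0.0329). ENTPD3 and NT5M kept their calls without each library in turn, whereas without M3 replicate 1 the calls of GJB2 (log2 fold change -2.94, adjusted p = 0.055), NR4A3 (3.05, adjusted p = 0.0664), ENTPD7 (1.23, adjusted p = 0.0531) and PDE4B (-2.74, adjusted p = 0.109) were lost. That of GJB2 was also lost without M3 replicate 2 (-2.18, adjusted p = 0.0908) and without either library of M2 or M4 (adjusted p between 0.075 and 0.142), that of PDE4B without either M2 replicate, M3 replicate 2 or M4 replicate 2 (adjusted p between 0.0605 and 0.0912), that of NR4A3 without M4 replicate 1 (2.99, adjusted p = 0.0953) and that of ENTPD7 without M4 replicate 2 (1.12, adjusted p = 0.0551).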

How the results depend on the processing

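The replicate numbers do not mark a pairing, since nothing in the labels ties equal numbers and the correlations of deviations between same-numbered libraries were -0.026, 0.032, -0.007 and 0.112. With a replicate block in the fit the log2 fold change of NT5E was 2.93, 5.60 and 5.44 for M2, M3 and M4 against M1 and -0.16 for M4 against M3, and 2, 13, 24 and 8 other pathway genes were called.

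NT5E moved with the library assignment. With M1 replicate 2 and M2 replicate 1 exchanged its log2 fold change was -0.17 for M2, 3.44 for M3 and 3.27 for M4, and with both left out it was 2.62 for M2. Leaving out 1 library at a time gave 2.68 to 3.17 for M2, 5.29 to 5.88 for M3, 5.20 to 5.72 for M4 and -0.44 to 0.14 for M4 against M3. For ENPP3 the M2 value turned from -7.42 to 1.04 with the exchange. Of the fold changes of the pathway members under the alternatives, 430 moved by less than the replicate spread, 41 moved by more and 1 called value (NT5E in M2) changed sign. Among the 285 values of members that were not called, 22 changed sign, NT5E between M4 and M3 among them.

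For the other pathway genes called in M2 against M1 (2), DESeq2 called 4 (4.5% of all genes), a fit with no filter 8 (6.08%), a filter of 100 counts in 2 libraries 1 (4.61%), and no limit on the fold 5 (4.83%), while the exchange of the libraries and leaving both out called 0 each. In M3 against M1 (14) the fit of only the 2 lines called 8 (9.55% of all genes), the exchange 0 and no limit on the fold 23 (21.3%). In M4 against M1 (25) the exchange called 9 and leaving both out 16. In M4 against M3 (8) the 100-count filter called 5 (11.6%), the exchange 2 and no limit on the fold 17 (16.8%). Leaving out 1 library at a time gave 0 to 7, 8 to 15, 17 to 29 and 3 to 8 calls, beside 0.0% to 4.46%, 8.9% to 11.7%, 12.3% to 19% and 3.07% to 11.2% of all genes. Of single fold changes of other pathway genes, 2018 kept their side of the threshold, 161 lost and 39 gained a call and 1 called value (ENPP3 in M2) changed sign. Of the 1431 that were not called, 56 changed sign. Where 1 library was left in a line, it was assumed to vary like the others. With 2 replicates per line, a difference that missed the threshold was not shown to be absent, and ADORA2A, DPP4 and ENTPD8 were limited by their counts. Scaling by total counts, chosen after seeing the data, moved the median over all genes to -0.09 in M3 and 0.04 in M4 against M1.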

Other observations

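Of the genes within 1 Mb of NT5E, 5 were tested. SNX14 and SYNCRIP were called in none of the 4 comparisons in edgeR's quasi-likelihood test (SNX14 log2 fold change 0.20 in M4 against M1, adjusted p = 0.384, and SYNCRIP 0.33, adjusted p = 0.163). TBX18, a T-box transcription factor gene, was read 910 and 893 times in the M1 libraries, 807 and 740 times in the M3 libraries, and 20 and 4 times in the M4 libraries (log2 fold change of M4 against M1 -6.49, adjusted p = 0.000189). SNHG5 stood at 200 and 214 CPM in M1 and 34.1 and 33.1 CPM in M4 (-2.62, adjusted p = 0.00022). LINC02535 had 0 counts in both M1 libraries, 9 and 12 in the M2 pair, 42 and 35 in the M3 pair, and 247 and 120 in the M4 pair, which do not overlap in CPM between lines, and was at least 105-fold higher in M4 than in M1 (adjusted p = 0.000719). With the disputed libraries exchanged, M1 would hold 0 and 9 counts and M2 0 and 12. M1 and M2 would then overlap, and the 105-fold bound would not apply.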
